A study of Caenorhabditis elegans with 14 samples.

Results

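WAGO-class 22G-RNAs are small interfering RNAs that the worm's RNA-dependent RNA polymerases copy from transcripts chosen for silencing. The class was taken by its label in the deposited feature tables, without use of any measured value, and held 2215 of the 23869 features listed. Each member is a gene, and its value is the number of antisense reads of 21 to 23 nt that begin with G at that gene, per 1000000 reads of the library (rpm). Small RNAs were sequenced from whole gravid hermaphrodite adults of the pash-1(ram33) mutant and of wild type (N2), fed E. coli OP50. The mutation puts arginine in place of a glycine in the WW domain of PASH-1, the RNA-binding partner of Drosha in the Microprocessor. It came from a mutagenesis screen and was outcrossed, so the mutant is a single strain that may still carry linked mutations. At 20 °C animals were collected 72 h after the L1 stage, in 3 mutant and 3 wild-type libraries. At 25 °C they were collected after 54 h, in 4 libraries of each strain, and part of the mutant population is described as sterile at that temperature. The labels do not say whether replicates came from separate cultures, so the p-values measure only the spread between these libraries.

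In the germline, WAGO-class 22G-RNAs are bound by worm-specific Argonautes and amplify silencing that is started by piRNAs, by double-stranded RNA or by primary siRNAs of 26 nt. They silence pseudogenes, transposons, recently duplicated genes and many protein-coding genes. The CSR-class 22G-RNAs, which are made in a similar way, are bound by CSR-1 and cover most genes expressed in the germline. The primary 26G-RNAs fall into an ERGO class of oocytes and embryos, which targets duplicated genes and pseudogenes, and an ALG class of the spermatogenic germline. 22G-RNAs are primary products of a polymerase and carry a 5′ triphosphate. The library protocol joins adapters by ligation, and no step that removes the triphosphate is described, so the rpm may not reflect the abundance of the class among all small RNAs.

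The class was made of many weakly covered genes and a few strong ones. A median member had 0.22 rpm over the libraries at 20 °C and 0.256 rpm over those at 25 °C, and 65 members were at 0 in every library. A library held reads for 82.9% to 85.5% of the members in mutants against 82.6% to 83.5% in wild type at 25 °C, and for 83.3% to 84.1% in mutants against 80.5% to 84.0% in wild type at 20 °C. One read was worth an estimated 0.0425 to 0.061 rpm, so the median member rested on a handful of reads. The smallest difference that could be detected at that level was not determined. Depth was an estimated 16400000 to 23500000 reads per library. The 10 most abundant members supplied 15.75% to 16.03% of the class reads in mutants against 14.1% to 15.5% in wild type at 20 °C, and this share at 25 °C was 12.9% to 13.2% in mutants against 11.3% to 12.7% in wild type.

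The most abundant member was Y52B11A.18, a pseudogene on chromosome I (11059299 to 11061435, plus strand; positions and gene types are from the WBcel235 annotation). It had 81.4, 92.9 and 100.1 rpm in mutants against 73.8, 89.3 and 79.0 rpm in wild type at 20 °C. At 25 °C it had 76.5, 82.4, 74.0 and 74.3 rpm in mutants against 55.2, 58.5, 47.9 and 48.8 rpm in wild type. On deposited rpm the strains overlapped at 20 °C and did not at 25 °C, where this gene supplied 4.17% ± 0.054 of the class reads in mutants and 3.44% ± 0.31 in wild type (SD, n = 4 each). After the rescaling by size factors used for single genes, the strains overlapped at 25 °C as well, with a log2 fold change of -0.040 ± 0.076 (SE) and an adjusted p of 0.638 by limma. F02C12.3, Y17D7C.3, Y57G11C.51, linc-29, T05E12.10, T05E12.8, par-2, W09C5.12 and sqst-1 followed, with means of 11.9 to 25.6 rpm over the 14 libraries. par-2 encodes a polarity protein of the one-cell embryo and sqst-1 an autophagy receptor, while linc-29 is a noncoding RNA.

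Members were mostly protein-coding genes (1740), with 248 pseudogenes, 8 lincRNAs, 5 other noncoding RNAs, 1 miRNA gene and 1 antisense RNA among the 2003 members that matched the annotation. Pseudogenes supplied 20.8% ± 0.25 of the class reads in mutants and 19.3% ± 0.53 in wild type at 20 °C (SD, n = 3 each), without overlap. At 25 °C they supplied 18.6% ± 0.11 in mutants and 18.1% ± 0.29 in wild type (SD, n = 4 each), with overlap. The members lay on all 6 chromosomes, from 300 on chromosome III to 370 on chromosome V. Within 5000 bases of each other lay 589 pairs of members, of which 75 overlapped and 20 overlapped on the same strand. Reads that match both genes of such a pair, or both copies of a duplicated gene, cannot be told apart in these values.

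Of the 2215 members, 2042 were in no other small RNA class of the tables. A further 79 were also listed as ERGO-class 26G targets, out of 123 genes in that class, 69 as ALG-class targets and 26 as CSR-class targets, with 1 gene in both of the last groups. For all 26 shared with the CSR class the values in the 14 libraries were the same in both classes, so their reads were listed under both labels. The 79 genes shared with the ERGO class held 98.9% of the ERGO-class 26G reads in mutants and 99.1% in wild type at 20 °C. These overlaps were singled out after values had been seen, and are described by counts and medians with no test of their own.

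Summed over all members, WAGO-class 22G-RNAs came to 1503 to 1767 rpm in mutants against 1369 to 1488 rpm in wild type at 20 °C. The sum at 25 °C was 1776 to 1940 rpm in mutants against 1437 to 1663 rpm in wild type. The mutant mean was 15.4% higher at 20 °C and 20.5% higher at 25 °C, and the strains did not overlap at either temperature. The reads of other classes changed too, so the direction of the class depended on what it was set against. Relative to all 22G reads, which here are the WAGO and CSR classes together, the class made up 9.52% ± 0.38 in mutants and 9.60% ± 0.58 in wild type at 20 °C (SD, n = 3 each), with overlap. At 25 °C its share was 12.1% ± 0.31 in mutants and 8.70% ± 0.14 in wild type (SD, n = 4 each), without overlap. Relative to piRNAs, there were 16.5 to 18.6 WAGO-class reads per 1000 piRNA reads in mutants against 16.9 to 19.7 in wild type at 20 °C, and 21.2 to 24.4 in mutants against 33.7 to 41.4 in wild type at 25 °C. The class at the higher temperature was thus higher in mutants per library read and per 22G read, and lower per piRNA read, each without overlap between strains.

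**Figure D1:**
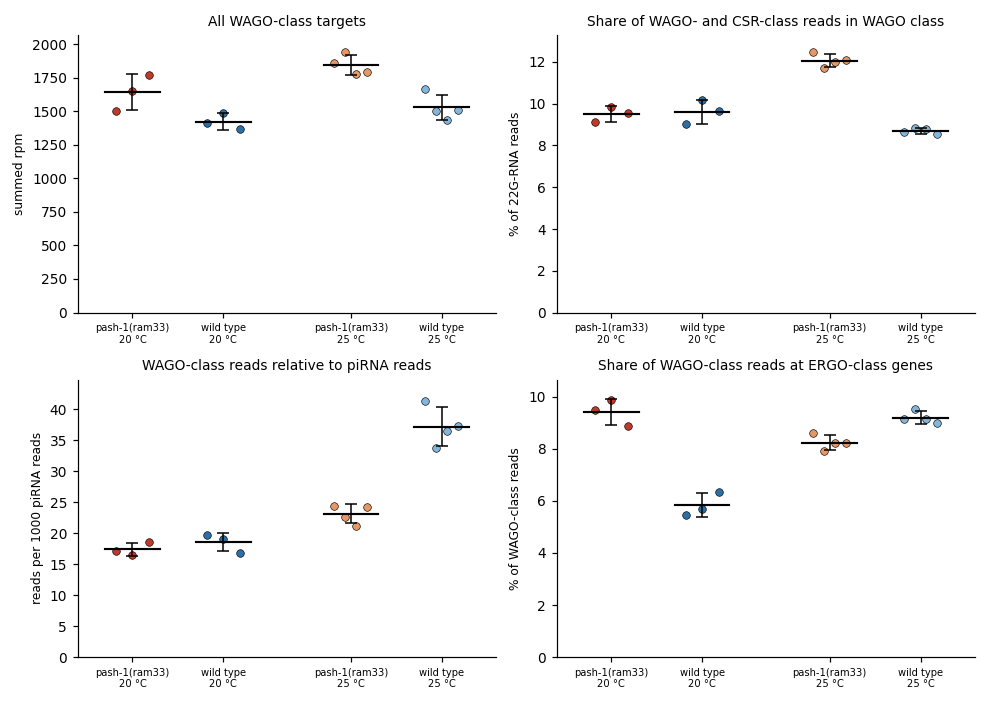
WAGO-class reads in each library (points) with the mean and SD (line and bars), for pash-1(ram33) mutants and wild type at each temperature: summed rpm, percent of WAGO- and CSR-class reads, reads per 1000 piRNA reads, and percent of WAGO-class reads at genes also listed in the ERGO class. At 25 °C the mutants are above wild type in the first 2 panels (1776 to 1940 against 1437 to 1663 rpm) and below in the third (21.2 to 24.4 against 33.7 to 41.4).

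Other classes and cell type markers differed between the strains in the same libraries. CSR-class 22G-RNAs came to 15600 rpm in mutants and 13410 rpm in wild type at 20 °C, and 13430 rpm in mutants and 16040 rpm in wild type at 25 °C. piRNAs came to 94500 rpm in mutants and 77060 rpm in wild type at 20 °C, and 79910 rpm in mutants and 41190 rpm in wild type at 25 °C. ALG-class 26G-RNAs of the spermatogenic germline came to 477 to 575 rpm in mutants against 246 to 369 rpm in wild type at 20 °C, and 2015 to 2598 rpm in mutants against 213 to 316 rpm in wild type at 25 °C. The embryonic miR-35 to miR-41 group, of which all 7 were detected, came to 90020 to 102000 rpm in mutants against 168100 to 187000 rpm in wild type at 20 °C, and 58150 to 69630 rpm in mutants against 191100 to 214600 rpm in wild type at 25 °C. The muscle miRNA miR-1 overlapped between strains at both temperatures. The 3 neuronal miRNAs (lsy-6, miR-124 and miR-791) were all detected, and summed to 15.9 to 17.6 rpm in mutants against 11.5 to 17.1 rpm in wild type at 20 °C, and 21.5 to 25.9 rpm in mutants against 9.74 to 12.1 rpm in wild type at 25 °C. All miRNAs together came to 751700 rpm in mutants and 806300 rpm in wild type at 20 °C, and 727000 rpm in mutants and 835900 rpm in wild type at 25 °C. The authors report most canonical miRNAs as lower in this mutant, whose mutated protein takes part in miRNA processing. The part of these differences in the results on WAGO targets was not tested. These are whole animals, so fewer cells of a type and less RNA per cell, for miRNAs also through less processing, cannot be told apart.

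To compare single genes, size factors (medians of ratios over all features of a table) were applied to rpm, 0.1 was added, and strains were compared with limma on the log2 scale. Features averaging 1 rpm or more, whatever their class, entered the test, and Benjamini-Hochberg adjustment ran over all of them with a threshold of 0.05. The rescaling lowered the log2 fold changes relative to deposited rpm. The mean log2 size factors of the strains differed by 0.37 at 20 °C and 0.59 at 25 °C. The counts for the class as a whole are therefore given under 5 scalings, which are these size factors, deposited rpm, the piRNA total, and size factors from the CSR class or from the WAGO class alone. Other counts are with size factors over all features unless another scaling is named beside them. Fold changes are on the log2(rpm + 0.1) scale, which understates those of weak genes. At 20 °C 333 members entered the test, 32 of them only through the mutant mean and 11 only through the wild-type mean. At 25 °C 412 entered, 65 only through the mutant mean and 9 only through the wild-type mean, so counts among tested members describe the stronger part of the class. Strains without overlap were common on deposited rpm. All mutants were above all wild-type libraries for 36.6% of all features tested at 20 °C and 47.1% at 25 °C, and below for 2.86% and 10.1%. Among the tested members these shares were 18.3% and 20.4% above, and 2.70% and 3.16% below.

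At 20 °C few WAGO targets differed between the strains, and those that were higher in mutants were mostly genes that also give ERGO-class 26G-RNAs. Of 333 tested members 7 were higher and 4 lower in mutants, against 2.06% of all 7034 features higher and 3.84% lower. Among the higher members 6 of 7 were among the 79 ERGO-class genes. Of the 7 increases 4 (Y116F11A.1, C01A2.1, F55C9.3 and fbxa-193) passed the level filter only through the mutant mean, and of the 4 decreases 2 (Y47H10A.5 and pan-1) only through the wild-type mean. A member that enters in this way has to differ in that direction, so the filter did not leave these 6 calls free to go either way. The median log2 fold change of the tested members was -0.23, against -0.01 for all features tested. Of these calls, 6 of the 7 increases and 2 of the 4 decreases were past the threshold under each of the 5 scalings, which was so for 1.25% and 1.66% of all features. On deposited rpm 25 members were higher and 3 lower (22.7% and 1.81% of all features), and the median was 0.13. Set against the piRNA total 10 were higher and 4 lower (2.97% and 3.01%), against the CSR class 7 and 2 (1.28% and 1.68%), and relative to the WAGO class 10 and 4 (3.20% and 2.27%). With no filter 8 of 2114 members were higher and 7 lower (0.655% and 1.33%). The counts moved when 1 replicate number was left out of both strains together. Without replicate 3 21 members were lower and without replicate 2 only 1 was, while 3 were higher without replicate 1.

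Y17D7C.3, a pseudogene on chromosome V (18720589 to 18723771, minus strand), was the most abundant of the members that were higher. It had 25.8, 30.7 and 30.5 rpm in mutants against 9.14, 14.3 and 10.9 rpm in wild type at 20 °C. All mutants were above all wild-type libraries, with a log2 fold change of 0.99 ± 0.15 (SE) and an adjusted p of 9.02e-06 by limma. E01G4.5, a protein-coding gene among the often assayed 22G targets, lies on chromosome II (13472401 to 13473995, plus strand). It had 8.73, 8.30 and 10.1 rpm in mutants against 3.11, 4.35 and 4.02 rpm in wild type, without overlap (log2 fold change 0.87 ± 0.19, limma adjusted p = 0.00233).

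F39E9.7, a pseudogene among the same often assayed targets, lies on the same chromosome (3306144 to 3307505, minus strand). Its values were 5.86, 6.84 and 5.57 rpm in mutants against 1.19, 1.73 and 2.4 rpm in wild type, again without overlap (1.42 ± 0.24, limma adjusted p = 4.7e-05). Y116F11A.1, on chromosome V (19730580 to 19732242, plus strand), had 3.47, 3.18 and 3.02 rpm in mutants against 0.97, 0.45 and 0.88 rpm in wild type (1.66 ± 0.31, limma adjusted p = 0.000273). C01A2.1 and F55C9.3 were the remaining ERGO-class genes, with log2 fold changes of 1.39 ± 0.32 and 1.51 ± 0.41. The calls for Y17D7C.3, F39E9.7 and Y116F11A.1 held without any single replicate number. E01G4.5 (adjusted p = 0.0673) and C01A2.1 (0.0685) missed the threshold without replicate 1, C01A2.1 (0.144) and F55C9.3 (0.47) without replicate 2, and F55C9.3 also without replicate 1 (0.147), all by limma.

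The only increase outside the ERGO class was fbxa-193, annotated as a pseudogene of the F-box family, with 1.63, 1.59 and 1.84 rpm in mutants against 0.30, 0.50 and 0.25 rpm in wild type. Its log2 fold change was 1.71 ± 0.42 (limma adjusted p = 0.00799), and 0.057 and 0.0673 were its adjusted p-values without replicate 1 and without replicate 3. The largest decrease was at Y47H10A.5, on chromosome I (12095482 to 12097987, minus strand), another often assayed target. It had 0.82, 0.58 and 0.74 rpm in mutants against 2.62, 3.27 and 2.11 rpm in wild type, without overlap (-2.09 ± 0.32, limma adjusted p = 9.14e-06). haf-4, which encodes an ABC transporter of intestinal granules, had 1.99, 1.56 and 3.09 rpm in mutants against 5.0, 5.17 and 3.08 rpm in wild type. One mutant library was level with the lowest wild-type library on deposited rpm, the strains did not overlap after rescaling, and the log2 fold change was -1.34 ± 0.26 (limma adjusted p = 0.000675, and 0.0698 without replicate 2). pan-1, which encodes a leucine-rich repeat protein, and bath-20, a MATH-domain gene, were also lower (-1.28 ± 0.33 and -0.75 ± 0.18). Both missed the threshold without replicate 2 (limma adjusted p = 0.305 and 0.0922) and under size factors from the CSR class.

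**Figure D2:**
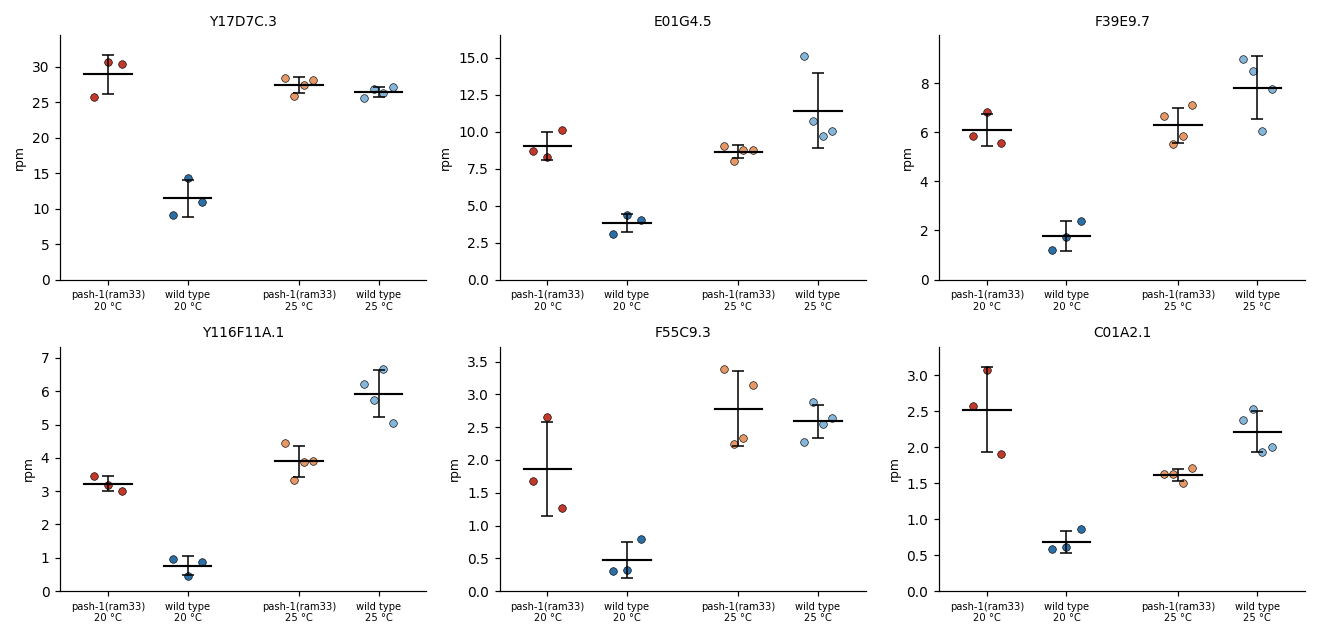
22G-RNA rpm as deposited in each library (points), with the mean and SD, at the 6 WAGO targets also listed in the ERGO class that were higher in pash-1(ram33) at 20 °C. In every panel the 3 mutants are above the 3 wild-type libraries at 20 °C (Y116F11A.1: 3.02 to 3.47 against 0.45 to 0.97 rpm), while at 25 °C mutants overlap with or are below wild type.

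At 25 °C the number and the direction of calls depended on the scaling more than at 20 °C, and 21 increases and 1 decrease were called under each of the 5 scalings. With size factors over all features 141 of 412 tested members were lower and 36 higher in mutants, against 39.3% and 33.6% of all 7070 features. The median log2 fold change of the tested members was -0.36, against -0.04 for all features. On deposited rpm 12 members were lower and 100 higher (13.3% and 51.9% of all features), and the median was 0.20. Set against the CSR class 1 was lower and 197 higher (3.90% and 58.3%), set against the piRNA total 266 were lower and 21 higher (49.3% and 19%), and relative to the WAGO class itself 62 were lower and 53 higher (29.5% and 42.8%). With no filter 227 of 2112 members were lower and 77 higher (15.8% and 18.3%). Under each scaling the share of WAGO targets called higher was below the share of all features. It was above the share of CSR-class features, which ran from 0% to 7.06% over the 5 scalings. The 36 increases were past the threshold under every scaling but the piRNA total, which kept 21 of them, against 19% of all features that were higher under each of the 5 scalings. Of the 141 decreases only that of ppk-3 held under each of the 5, against 3.90% of all features. Of the 36 increases 22 passed the level filter only through the mutant mean, among them 16 of the 21, and of the 141 decreases 9 passed only through the wild-type mean, among them ppk-3. The filter did not leave these calls free to go either way. The remaining 5 of the 21, which averaged 1 rpm or more in both strains, were C04G2.10, F08F3.8, W03F9.3, csp-1 and hil-8.

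**Figure D3:**
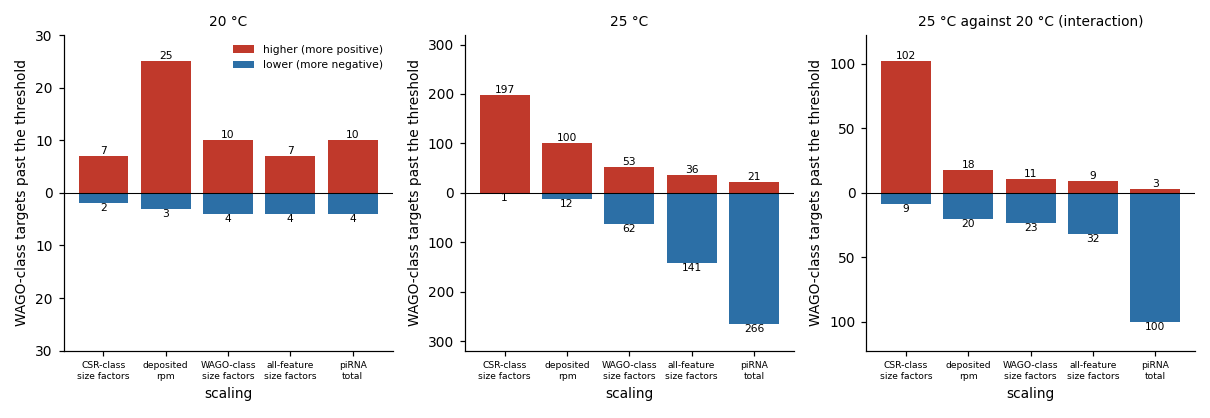
Number of WAGO targets past the threshold (limma, adjusted p under 0.05) that were higher (red, upward) or lower (blue, downward) in pash-1(ram33) than in wild type under 5 scalings, at 20 °C, at 25 °C and for the difference between temperatures. At 25 °C the counts run from 197 higher and 1 lower against the CSR class to 21 higher and 266 lower against the piRNA total.

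The largest increase at 25 °C was at C07A9.13, a protein-coding gene on chromosome III (9679659 to 9681306, minus strand). It had 4.56, 4.45, 5.38 and 4.92 rpm in mutants against 1.21, 1.07, 0.56 and 0.26 rpm in wild type, without overlap (log2 fold change 2.12 ± 0.29, limma adjusted p = 3.43e-07). At 20 °C it was at 0.47 to 0.67 rpm in mutants against 0.14 to 0.49 rpm in wild type, below the level tested. T11G6.7, a pseudogene on chromosome IV (10844594 to 10845620, minus strand), had 1.51, 1.68, 2.21 and 2.34 rpm in mutants against 0.61, 0.27, 0.17 and 0.13 rpm in wild type (2.00 ± 0.39, limma adjusted p = 4.92e-05). F13H8.8, on chromosome II (6265609 to 6268083, minus strand), had 1.13, 2.28, 1.68 and 2.45 rpm in mutants against 0.24, 0.41, 0.30 and 0.21 rpm in wild type (1.82 ± 0.36, limma adjusted p = 7.34e-05). F13H8.8 is also an ALG-class 26G target, and none of these 3 genes overlapped between strains. These 3 and fbxa-193 passed the level filter at 25 °C only through the mutant mean. That filter did not leave their calls free to go either way. fbxa-193 was higher at 25 °C as well, with 2.13 to 2.59 rpm in mutants against 0.45 to 0.74 rpm in wild type (1.28 ± 0.28, limma adjusted p = 0.000227), and was called higher at both temperatures under each scaling. No other member was with size factors over all features or against the piRNA total, while 10 members in all were on deposited rpm, 2 against the CSR class and 2 relative to the WAGO class.

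The following genes were named after their values were seen, as further members of the 21 increases that held under each scaling. All of them but csp-1, hil-8 and C04G2.10 passed the level filter only through the mutant mean. K02D10.3 and K02D10.2, which lie 71 bases apart on chromosome III inside K02D10.1 on the opposite strand, had 2.66 to 3.21 and 1.63 to 2.37 rpm in mutants, against 0.27 to 1.13 and 0.24 to 0.90 rpm in wild type. csp-1 and csp-2, both of which encode caspase-family proteins, had 2.76 to 5.49 and 1.98 to 2.11 rpm in mutants against 0.70 to 1.83 and 0.11 to 1.0 rpm in wild type. hil-8, which encodes a linker histone, had 3.79 to 6.61 rpm in mutants against 1.62 to 1.98 rpm in wild type. Y17D7B.4 was the only ERGO-class gene among the 21, with 1.95 to 2.53 rpm in mutants against 0.35 to 0.52 rpm in wild type, and 4 of the 21 were ALG-class genes (F13H8.8, C06A1.3, F53G12.8 and C04G2.10). None of these genes overlapped between strains on deposited rpm, where all mutants were above all wild-type libraries for 47.1% of all features tested. The 21 log2 fold changes lay between 0.93 and 2.12.

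The ALG-class overlap of 69 genes gave 22G reads of 72.4 to 86.3 rpm in mutants against 45.6 to 54.9 rpm in wild type at 25 °C, and of 51.7 to 60.1 rpm in mutants against 42.5 to 43.7 rpm in wild type at 20 °C. Of 18 of these genes tested at 25 °C 6 were higher and 4 lower, against 33.6% and 39.3% of all features, so the share called higher was close to that of all features. The counts were 8 and 1 on deposited rpm (51.9% and 13.3% of all features) and 11 and 0 against the CSR class (58.3% and 3.90%). They were 4 and 9 against the piRNA total (19% and 49.3%), and 7 and 3 relative to the WAGO class (42.8% and 29.5%). Of 9 tested at 20 °C none passed the limma threshold in either direction under any of the 5 scalings. The 26G reads of the 69 genes came to 76.6 to 94.1 rpm in mutants against 4.62 to 8.55 rpm in wild type at 25 °C. Among the 18, aagr-3, which encodes a glucosidase-related enzyme, had the largest decrease, with 2.03, 2.70, 2.05 and 1.81 rpm in mutants against 4.25, 2.71, 2.91 and 3.19 rpm in wild type (-1.14 ± 0.20, limma adjusted p = 1.44e-05; named after its values were seen).

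The largest decrease at 25 °C was at ppk-3, which encodes a phosphatidylinositol phosphate kinase of endosomes, on the X chromosome (12968910 to 12975645, minus strand). It had 0.61, 0.98, 0.79 and 0.85 rpm in mutants against 1.70, 1.54, 2.04 and 1.87 rpm in wild type, without overlap (-1.61 ± 0.28, limma adjusted p = 9.05e-06). At 20 °C it had 1.41, 1.17 and 1.10 rpm in mutants against 0.73, 1.22 and 0.49 rpm in wild type, with overlap. prde-1, whose product is needed for piRNA transcription, had 0.69, 1.52, 0.63 and 0.67 rpm in mutants against 1.4, 1.47, 1.92 and 1.45 rpm in wild type (-1.38 ± 0.30, limma adjusted p = 0.000202). Its strains overlapped on deposited rpm, and it is listed in the CSR class with the same reads. ppk-3 and prde-1 passed the level filter at 25 °C only through the wild-type mean. siah-1, an E3 ubiquitin ligase gene, had 2.22, 1.49, 1.16 and 2.39 rpm in mutants against 2.98, 2.4, 2.91 and 3.32 rpm in wild type (-1.26 ± 0.24, limma adjusted p = 3.48e-05). prde-1 and siah-1 missed the threshold under size factors from the CSR class (limma adjusted p = 0.0959 and 0.129). Y47H10A.5, below the level tested at 25 °C, had 0.42, 0.23, 0.06 and 0.21 rpm in mutants against 1.04, 0.63, 1.04 and 0.85 rpm in wild type, so its strains did not overlap at either temperature.

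**Figure D4:**
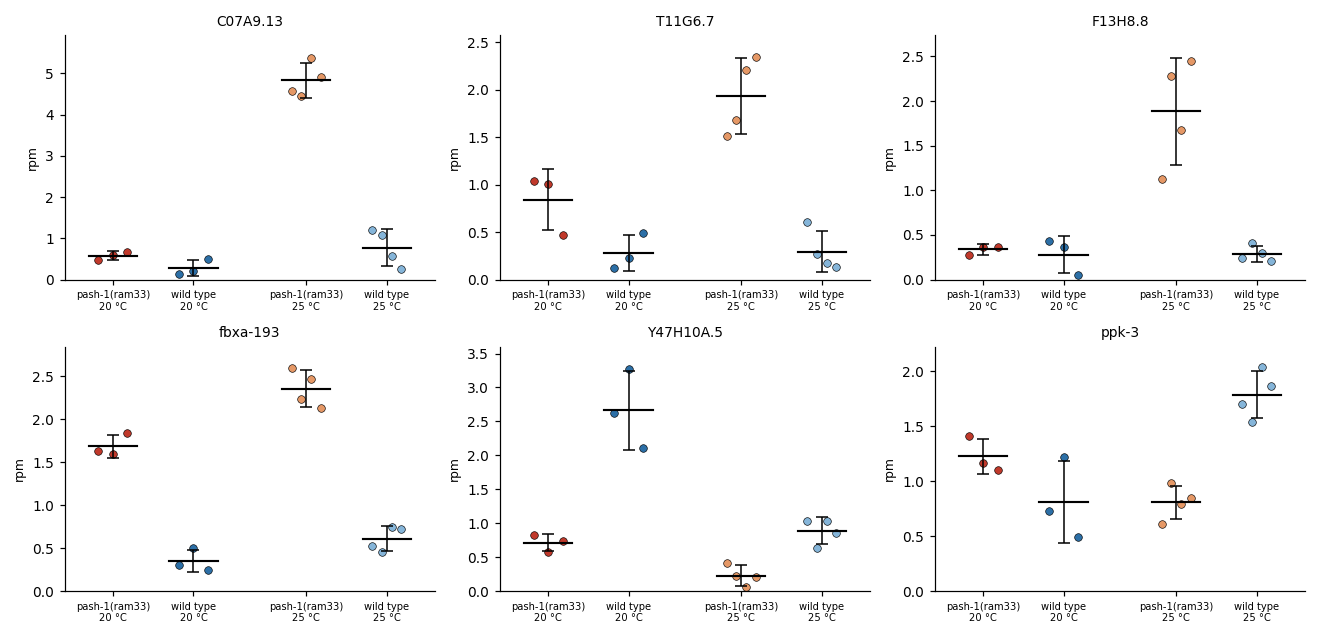
22G-RNA rpm as deposited in each library (points), with the mean and SD, at 6 WAGO targets named by the size of their change. C07A9.13, T11G6.7, F13H8.8 and fbxa-193 are higher in pash-1(ram33) at 25 °C (C07A9.13: 4.45 to 5.38 against 0.26 to 1.21 rpm), Y47H10A.5 is lower at both temperatures, and ppk-3 is lower at 25 °C (0.61 to 0.98 against 1.54 to 2.04 rpm).

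For several of the most abundant members the sign of the change at 25 °C followed the scaling. F02C12.3 had 27.3 to 31.4 rpm in mutants against 22.8 to 26.8 rpm in wild type, higher without overlap on deposited rpm. With size factors over all features it was lower (log2 fold change -0.30 ± 0.09, limma adjusted p = 0.00462), so its direction is not settled. T05E12.8 had 14.7 to 16.4 rpm in mutants against 6.09 to 7.31 rpm in wild type, and was higher on both scales (0.61 ± 0.12, limma adjusted p = 3.54e-05; deposited rpm 1.2). It was positive at 0.25 but not past the threshold (limma adjusted p = 0.0708) when set against the piRNA total. At 20 °C it had 18.92 to 21.86 rpm in mutants against 10.21 to 12.39 rpm in wild type, without overlap. There it missed the threshold with size factors over all features (0.45 ± 0.15, limma adjusted p = 0.0714) and against the CSR class (limma adjusted p = 0.0547), and passed it on deposited rpm (0.00101), against the piRNA total (0.0302) and relative to the WAGO class (0.0176). Y57G11C.51 and par-2 had -0.64 ± 0.11 and -0.44 ± 0.12 with size factors over all features, and -0.05 and 0.14 on deposited rpm.

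The change between strains differed between temperatures at many of the ERGO-class genes. In a fit over the 14 libraries, with values scaled within each table, 32 of 372 tested members had a more negative change at 25 °C than at 20 °C and 9 a more positive one. Among all 7119 features, 20.2% were more negative and 16.2% more positive. Of 2597 CSR-class features tested, 46.3% were more negative and 0 more positive, with a median difference of -0.70. ERGO-class genes made up 14 of the 32 and 1 of the 9, from 29 tested. Their median difference was -0.997, against -0.13 for all tested members and -0.03 for all features. It lay between -1.42 and -0.29 over the 5 scalings, and against the CSR class 8 ERGO-class genes were more negative and 6 more positive. The median of the tested members outside the ERGO class lay between -0.52 and 0.57, and against the CSR class it was farther from 0 (0.57, against -0.29 for the ERGO-class genes). Under each of the 5 scalings 9 members stayed more negative and 3 more positive (1.5% and 4.90% of all features), and 8 of the 9 were ERGO-class genes. The 8 were Y116F11A.1, C01A2.1, F39E9.7, mir-8199, F55C9.3, E01G4.5, C36A4.14 and Y17D7C.3, and ppk-3 was the ninth. On deposited rpm 20 were more negative and 18 more positive (11.3% and 23%), against the piRNA total 100 and 3 (37% and 4.90%), against the CSR class 9 and 102 (1.5% and 42.9%), relative to the WAGO class 23 and 11 (15.3% and 18.5%), and with no filter 40 and 7 of 2150 (5.35% and 5.80%). Without replicate 3 18 members were more negative, and without replicate 2 and without replicate 4 there were 4 and 5 more positive ones.

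At Y17D7C.3 the 25 °C libraries had 28.4, 25.9, 27.4 and 28.2 rpm in mutants against 25.6, 26.9, 26.4 and 27.2 rpm in wild type, so the 20 °C gap between the strains was not seen on deposited rpm. With size factors over all features it was lower in mutants at 25 °C (-0.54 ± 0.09, limma adjusted p = 7.46e-06). Against the CSR class it was higher (0.34, limma adjusted p = 0.00777). The difference between the temperatures was -1.53 ± 0.17 on the log2 scale (limma adjusted p = 9.99e-09). Y116F11A.1 had 4.46, 3.33, 3.87 and 3.91 rpm in mutants against 6.23, 5.74, 6.68 and 5.04 rpm in wild type at 25 °C. It was therefore above wild type in all mutants at 20 °C and below in all mutants at 25 °C, and its difference was -2.83 ± 0.32 (limma adjusted p = 1.18e-08). E01G4.5 had 9.01, 8.03, 8.79 and 8.8 rpm in mutants against 15.2, 10.7, 9.70 and 10.1 rpm in wild type at 25 °C, with a difference of -1.83 ± 0.22 (limma adjusted p = 6.95e-08). F39E9.7 had 6.66, 5.54, 5.86 and 7.10 rpm in mutants against 8.98, 8.48, 6.05 and 7.75 rpm in wild type, which overlap, with a difference of -2.30 ± 0.26 (limma adjusted p = 1.73e-08).

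Of the 79 ERGO-class genes 24 were tested at both temperatures, and 15 of them were positive at 20 °C but negative at 25 °C, as were 50 of the other 284 members. Over the 5 scalings these counts ran from 7 to 19 of the 24 and from 11 to 80 of the 284. Among the ERGO-class genes 6 were called higher at 20 °C and lower at 25 °C (0 to 8 over the 5 scalings), and no other member was under any of them. At 25 °C 16 of 31 tested ERGO-class genes were lower and 1 higher with size factors over all features (39.3% and 33.6% of all features), and 4 were lower and 9 higher on deposited rpm (13.3% and 51.9%), so their direction at 25 °C depended on the scaling. At 20 °C none was lower under any of the 5 scalings, and 6 to 15 of 26 were higher, against 1.28% to 22.7% of all features. Across the 284 other members the 20 °C and 25 °C changes had a Pearson r of 0.29 (Spearman rho 0.23), and across the 24 ERGO-class genes r was -0.40 (rho -0.42). These are correlations across genes of the same libraries, and genes are not independent replicates.

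**Figure D5:**
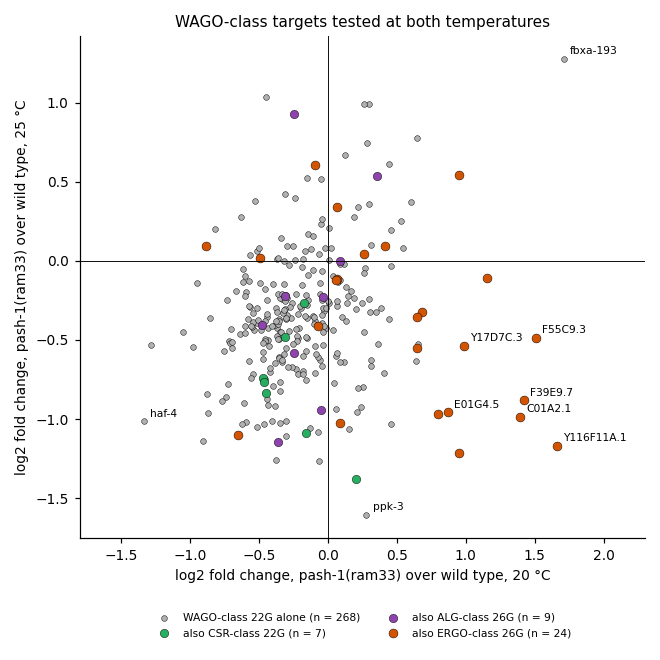
Log2 fold change of pash-1(ram33) over wild type at 20 °C (horizontal) and at 25 °C (vertical), with size factors over all features, for the 308 WAGO targets tested at both temperatures. Points are coloured by the other small RNA class that lists the gene. Most ERGO-class genes (15 of 24) lie at the lower right, positive at 20 °C and negative at 25 °C, and fbxa-193 lies at the upper right (1.71 and 1.28).

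As a share of all WAGO-class reads, which needs no scaling, the 79 ERGO-class genes held 8.86% to 9.86% in mutants against 5.46% to 6.35% in wild type at 20 °C. Their share at 25 °C was 7.90% to 8.61% in mutants against 8.98% to 9.53% in wild type. The strains did not overlap at either temperature, and the mutants were higher at 20 °C and lower at 25 °C. In rpm the genes came to 143 to 163 in mutants against 76.9 to 87.0 in wild type at 20 °C, and to 146 to 160 in mutants against 131 to 152 in wild type at 25 °C. Wild type at 20 °C had the lowest mean, 82.9 rpm, against 140 to 154 rpm in the 3 other groups, although the tables were normalized separately and no test was made across them.

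The 26G-RNAs of the same 79 genes came to 1471 to 1613 rpm in mutants against 775 to 949 rpm in wild type at 20 °C, and to 1100 to 1301 rpm in mutants against 872 to 999 rpm in wild type at 25 °C. Of 21 genes with both kinds tested at 20 °C, 18 had positive log2 fold changes for both and none had negative ones for both. Under the other scalings 19 or 20 of the 21 were positive for both. Taken alone, 19 of the 21 were positive for 26G-RNAs and 20 for 22G-RNAs with size factors over all features. With these totals the count for both could not have been lower, so it does not show agreement gene by gene. Of 22 such genes at 25 °C, 16 had negative changes for both with size factors over all features, while on deposited rpm 14 had positive changes for both and none negative ones for both, and against the CSR class these counts were 15 and 0. In the difference between temperatures 20 of 23 were negative for both with size factors over all features, 18 on deposited rpm and 10 against the CSR class, where 5 were positive for both. At 25 °C 26G changes were positive at 0 of the 22 genes with size factors over all features, and at all 22 under the other scalings given. In the difference between temperatures they were positive at 0 of 23 with size factors over all features and on deposited rpm. There too the totals fixed the counts for both, which do not show agreement gene by gene. At Y116F11A.1 26G-RNAs were at 112.1, 115.7 and 109.7 rpm in mutants against 29.9, 41.9 and 38.2 rpm in wild type at 20 °C (1.26 ± 0.12, limma adjusted p = 2.31e-10). At E01G4.5, in contrast, they were at 20.06, 23.02 and 23.47 rpm in mutants against 16.1, 16.2 and 16.9 rpm in wild type (0.07 ± 0.14, limma adjusted p = 0.837), while its 22G-RNAs were higher. In rpm, embryonic miRNAs were lower in mutants at both temperatures, while 26G-RNAs of oocytes and embryos were higher. The part of either in these values was not tested.

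The gene lists used to group the class gave small counts, because most of their members were below the level tested. Among 10 often assayed 22G targets 8 were tested at 20 °C, with 2 higher (E01G4.5 and F39E9.7) and 1 lower (Y47H10A.5), against 2.06% and 3.84% of all features. At 25 °C 3 of 7 were lower and 0 higher, against 39.3% and 33.6% of all features (1 lower and 3 higher on deposited rpm), of which bath-45 had 9.01, 6.93, 6.69 and 6.7 rpm in mutants against 9.02, 7.15, 7.48 and 7.74 rpm in wild type. It overlapped between strains on deposited rpm, with a log2 fold change of -0.69 ± 0.14 after rescaling (limma adjusted p = 9.41e-05) and -0.10 on deposited rpm. Of 11 small RNA pathway genes 5 were tested, and 3 were lower and 0 higher at 25 °C, against 39.3% and 33.6% of all features. On deposited rpm 1 was lower (13.3% of all features), against the piRNA total 5 were lower (49.3%), and against the CSR class 2 were higher (58.3%). None passed the limma threshold at 20 °C under any of the 5 scalings. They included prde-1, eri-6, a helicase gene of the ERGO pathway that had -0.41 ± 0.16 at 25 °C, and wago-2, an Argonaute gene annotated as a pseudogene that had -0.58 ± 0.17. On deposited rpm eri-6 had 0.17 and wago-2 -0.01, neither past the threshold. sid-1, the gene of a double-stranded RNA channel, had 2.61 to 5.12 rpm in mutants against 2.45 to 3.54 rpm in wild type and did not pass at 25 °C (-0.29 ± 0.20, limma adjusted p = 0.176).

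Of 7 insulin and dauer pathway genes 2 were tested, the FOXO factor gene daf-16 and the insulin receptor gene daf-2. At daf-16 the 20 °C libraries had 4.22, 4.88 and 6.25 rpm in mutants against 2.80, 2.39 and 2.21 rpm in wild type, without overlap, yet short of the threshold (0.66 ± 0.23, limma adjusted p = 0.0838). At 25 °C it had 4.76, 4.98, 4.95 and 3.51 rpm in mutants against 4.40, 3.33, 4.31 and 5.59 rpm in wild type, which overlap, and the difference between temperatures was -1.18 ± 0.28 (limma adjusted p = 0.00141; deposited rpm -0.96, limma adjusted p = 0.00958). daf-2 had 1.84 to 2.67 rpm in mutants against 1.74 to 2.45 rpm in wild type at 25 °C. Both genes were called lower at 25 °C after rescaling (-0.52 ± 0.17 and -0.51 ± 0.22), as were 39.3% of all features, and neither on deposited rpm (0.05 and 0.06).

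At 25 °C 39.3% of all features were lower and 33.6% higher, and at 20 °C 3.84% and 2.06%, so small counts in these lists at 25 °C do not set them apart. Of 96 F-box genes 8 were tested at 25 °C, with 2 lower and 1 higher (0 and 3 on deposited rpm), and 7 at 20 °C, with fbxa-193 the single call. Of 37 MATH and BTB domain genes 4 were tested at each temperature, with 1 lower at 20 °C (bath-20) and 3 lower at 25 °C, and none past the limma threshold on deposited rpm at either. Of 20 nuclear hormone receptor genes 2 were tested, and nhr-15 was lower at 25 °C (-0.34 ± 0.12, limma adjusted p = 0.0128). Of 11 histone genes the linker histone gene his-24 alone was tested, with -0.43 ± 0.14 at 25 °C (limma adjusted p = 0.00742). nhr-15 and his-24 had 0.25 and 0.16 on deposited rpm. Of 11 collagen-related genes 2, of 31 chemoreceptor genes 1, of 7 C-type lectin genes 0 and of 3 chaperone genes 0 reached the level tested at 25 °C, and none of these was past the limma threshold with size factors over all features. In each list with tested genes the counts at 25 °C changed with the scaling.

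By chromosome, the tested members had median log2 fold changes of -0.44 on chromosome II to -0.23 on chromosome V at 25 °C, and of -0.30 on the X chromosome to -0.18 on chromosome V at 20 °C. At 25 °C 13 of 50 members on the X chromosome were lower and 2 higher, and 126 of 343 autosomal members were lower and 34 higher, against 39.3% and 33.6% of all features. Set against the CSR class 1 was lower and 21 higher on the X chromosome, and 0 and 163 on the autosomes (3.90% and 58.3% of all features). By level, 33 of the 48 members at 5 rpm or more were lower and 1 higher at 25 °C, and 59 of 230 members at 1 to 2 rpm were lower and 23 higher. On deposited rpm 1 of the 48 was lower and 12 higher, and 3 of the 230 were lower and 52 higher (13.3% and 51.9% of all features), so these directions followed the scaling too. The median log2 fold changes at these levels were -0.39 and -0.37 with size factors over all features, and 0.19 and 0.17 on deposited rpm.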

How the data were processed

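The authors trimmed reads with fastp, aligned them with bowtie to the C. elegans genome (WS279), assigned them to features with tinyRNA and deposited rpm values in 2 tables. Under its rules a WAGO-class read is antisense, starts with G and is 21 to 23 nt long. The authors' own test was DESeq2 on read counts. In the 20 °C table the classes stood 1 line off from their features and were moved back, after which all 23869 features had the same class in both tables.

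Computed here, with R 4.3.3, limma 3.58.1 (lmFit, eBayes with trend and robust options), Python 3.11.15, numpy 2.4.6, pandas 2.3.3 and scipy 1.17.1, were the rescaled values and the fits at each temperature and over 14 libraries. The fits were tested on simulated data with known changes at a small part of the features, up and down alike. At 25 °C 39.3% of all features were lower and 33.6% higher, so the simulation did not test the choice of scaling. Depth was estimated from the step between low values. Between 89.98% and 91.67% of values under 0.5 rpm were whole reads at that step (within 0.005 rpm), too few for a test on counts. Replicates differed by more than sampling noise (median chi-square per feature 1.226 to 2.466, against 0.4549). Exact permutation tests planned for class totals and shares are not given, since no p is attached here to a sum over the members, and library values and their overlap stand in their place. Gene positions are from the WBcel235 annotation, which matched 2003 of 2215 members. No sequence is printed.

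The class, gene lists and tests were chosen with earlier results of these data known. Named are the 10 members with most rpm over all libraries. At each temperature the rule also took, among members past the threshold whose strains did not overlap after rescaling, up to 8 in each direction at 10 rpm or more and the 3 with the largest change in each direction at any level. It further took up to 5 in each direction at 10 rpm or more whose change differed between temperatures, and the 3 with most rpm in each gene list. The other genes were named after their values were seen. Alternatives were pseudocounts of 1 and 0.01, no filter, a mean of at least 5 rpm, the 4 other scalings, plain eBayes, the replicate number as a block, each replicate number left out, and, added after seeing the data, the class without ERGO-class genes.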

Additional observations from a re-analysis of the deposited data

Results flagged for a closer look

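The change between pash-1(ram33) and wild type at Y17D7C.3 differed between the temperatures by -1.53 on the log2 scale (25 °C minus 20 °C, limma adjusted p = 9.99e-09), and it was singled out because the test of that difference passed. The difference lay between -1.96 and -0.81 over the 5 scalings and between -1.67 and -1.40 with each replicate number left out. By the same test 32 of 372 tested WAGO targets had a more negative and 9 a more positive change at 25 °C. Both shares were below those of all features tested (20.2% and 16.2%). No library stood apart in the 16 groups of class values examined.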

How the results depend on the processing

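The counts at 20 °C (4 lower and 7 higher) became 7 lower with no filter, 2 lower and 3 higher at a mean of at least 5 rpm, 25 higher on deposited rpm, 2 lower against the CSR class and, without ERGO-class genes, 1 higher. At 25 °C (141 lower and 36 higher) they became 227 lower and 77 higher with no filter, 33 and 1 at a mean of at least 5 rpm, 12 and 100 on deposited rpm, 266 and 21 against the piRNA total, 1 and 197 against the CSR class, and 62 lower with size factors from the WAGO class. The 32 more negative and 9 more positive differences between temperatures became 6 and 0 at a mean of at least 5 rpm, 20 and 18 on deposited rpm, 100 and 3 against the piRNA total, 9 and 102 against the CSR class, and 18 more negative without ERGO-class genes. A stricter filter leaves fewer genes to test, and the cause of the other moves was not tested.

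The median log2 fold change at 20 °C was -0.0709 with no filter, 0.13 on deposited rpm, -0.0707 against the CSR class and -0.0814 relative to the WAGO class. At 25 °C it was -0.25 with a pseudocount of 1, -0.18 with no filter, 0.20 on deposited rpm, -0.71 against the piRNA total, 0.48 against the CSR class and -0.10 relative to the WAGO class. After rescaling by size factors the summed rpm of mutants differed from wild type by -10.68% at 20 °C and -19.94% at 25 °C. The share held by the 100 targets with most wild-type reads changed by -4.70% in mutants at 25 °C, and by -6.56% without the top 3 targets. These 100 were chosen by the same wild-type libraries, so a lower share in mutants was favoured in advance and nothing is drawn from it. The share of the 10 most abundant targets, chosen over all libraries, was 8.47% higher in mutants at 25 °C. Among single genes the sign turned at 25 °C on deposited rpm and against the CSR class at F02C12.3 (0.29 and 0.58), Y17D7C.3 (0.051 and 0.34), par-2 (0.14 and 0.43), Y52B11A.18 (0.55 and 0.84), linc-29 (0.37 and 0.66), W09C5.12 (0.34 and 0.63) and sqst-1 (0.38 and 0.66). It turned against the CSR class at Y57G11C.51 (0.24), relative to the WAGO class at Y52B11A.18 (0.23), linc-29 (0.050), W09C5.12 (0.024) and sqst-1 (0.058), and at T05E12.10 against the piRNA total (-0.32) and without replicate 2 (-0.018, up to 0.067 without another number). At 20 °C it turned on deposited rpm at Y52B11A.18 (0.18), F02C12.3 (0.17), Y57G11C.51 (0.032), linc-29 (0.058), par-2 (0.080), W09C5.12 (0.028) and sqst-1 (0.30), at F02C12.3 without replicate 2 (0.043), and at sqst-1 against the piRNA total (0.011), the CSR class (0.098) and the WAGO class (0.087) and without replicates 1 (0.019) and 2 (0.039).

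When 1 replicate number at a time was left out, 1 to 21 members were lower and 3 to 8 higher at 20 °C, 109 to 141 lower and 29 to 36 higher at 25 °C, and 18 to 30 more negative and 4 to 8 more positive between temperatures. The median at 20 °C ran from -0.36 to -0.12, the summed rpm from 8.95% to 19.8% higher, and the reads per piRNA read from -13.2% to -2.28%. Same-numbered mutant and wild-type libraries did not deviate together (correlations of -0.148 to 0.102 at 20 °C and -0.0262 to 0.029 at 25 °C), so the numbers were not taken as pairs. With the replicate number as a block 6 members were lower and 8 higher at 20 °C, 142 and 36 at 25 °C, and 32 more negative and 7 more positive between temperatures. Among the alternatives for named genes, 426 kept the direction and side of the threshold, 13 passed it newly in the same direction, 25 no longer passed and 34 turned sign, of which 17 had passed or newly passed the threshold. Weak members rested on few reads, and the part of depth in their calls was not tested.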
